A study of Drosophila melanogaster with 4 samples.

Results

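The regions described here are the stretches of chromatin enriched for monomethylated lysine 4 of histone H3 (H3K4me1) around wingless (wg) and the Wnt genes beside it, Wnt4, Wnt6 and Wnt10, on the left arm of chromosome 2 of Drosophila melanogaster. They were taken by position, as every region named enriched that overlapped 2L:7240000-7400000 on FlyBase release 5, a window of 160 kb. That gave 12 of the 7177 enriched regions in the list of ChIP replicate 1, 18 of 9903 in that of ChIP replicate 2, and 22 of 9501 in a further list that stands for the series and is named the combined list below. The lists came from chromatin immunoprecipitation and sequencing (ChIP-seq) of nuclei from third-instar larvae of the wild-type strain Oregon-R. There were 2 ChIP samples, precipitated with the antibody ab8895 (new lot 2), and 2 input samples of chromatin without precipitation, each of which served as background for the ChIP list of its number. The material is the whole larva, so a region can stem from any tissue, and enrichment in few cells and weak enrichment in many cannot be told apart.

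Wnt proteins are secreted signals that bind Frizzled receptors and their co-receptor Arrow on the receiving cell, and in the canonical branch they stabilise Armadillo, the fly β-catenin, which then acts with the DNA-binding factor Pangolin on target genes. Wingless is the fly counterpart of vertebrate Wnt1: it orders the segments of the embryo and, in the larva, patterns the imaginal discs, the pouches of epithelium that form the adult wing, leg and eye. Wnt6 is expressed in the wing disc in much the same cells as wg, and sequence between wg and Wnt6 is known from reporter studies to hold wing disc enhancers that respond to damage. Wnt4 is known from cell movement in the ovary and from wiring of motor and visual axons. H3K4me1 is found in textbook accounts at enhancers, both active and poised, and on the flanks of active promoters.

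By rising coordinate the genes run Wnt4, wg, Wnt6, Wnt10. On release 5 only the place of wg was at hand, at about 2L:7307000-7316000, called the wg interval below. The other 3 genes are therefore placed only by their side of wg: Wnt4 lies at lower coordinates, and Wnt6 and Wnt10 at higher ones. A RefSeq gene table of release 6, used for order alone, has 6 genes from Wnt4 to Wnt10: the protein-coding gene CG31909 stands between Wnt4 and wg, the non-coding gene lncRNA:CR45304 between wg and Wnt6, and none between Wnt6 and Wnt10. Next after Wnt10 are the antisense gene asRNA:CR44063 and ninaC, which encodes a myosin of photoreceptors. No region below is assigned to Wnt4, Wnt6 or Wnt10 itself.

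H3K4me1 was spread unevenly over the window. There was little on the Wnt4 side and a patchwork of regions under 10 kb from the low-coordinate edge of wg towards Wnt6 and Wnt10. On the 67 kb below the wg interval, enriched bases made up 9.78% in replicate 1 and 11.9% in replicate 2, while the combined list gave 21.3%. On the wg interval they made up 20.6% in replicate 1 and 83.8% in replicate 2, while the combined list gave 81.0%. On the 84 kb above it they made up 25.5% in replicate 1 and 39.8% in replicate 2, while the combined list gave 51.5%. Both replicates and the combined list thus had their lowest share on the Wnt4 side, while the replicates differed most over wg itself. Over the whole window the covered share was 24.6% ± 8.47 (SD, n = 2). Replicate 1 gave 18.6%, replicate 2 30.6% and the combined list 40.5%. With 2 ChIP samples in a single group no test over samples was possible, so the values below are descriptions with their spread. The labels do not say that the replicates came from separate cultures, and the read depth of the lists is unknown.

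**Figure D1:**
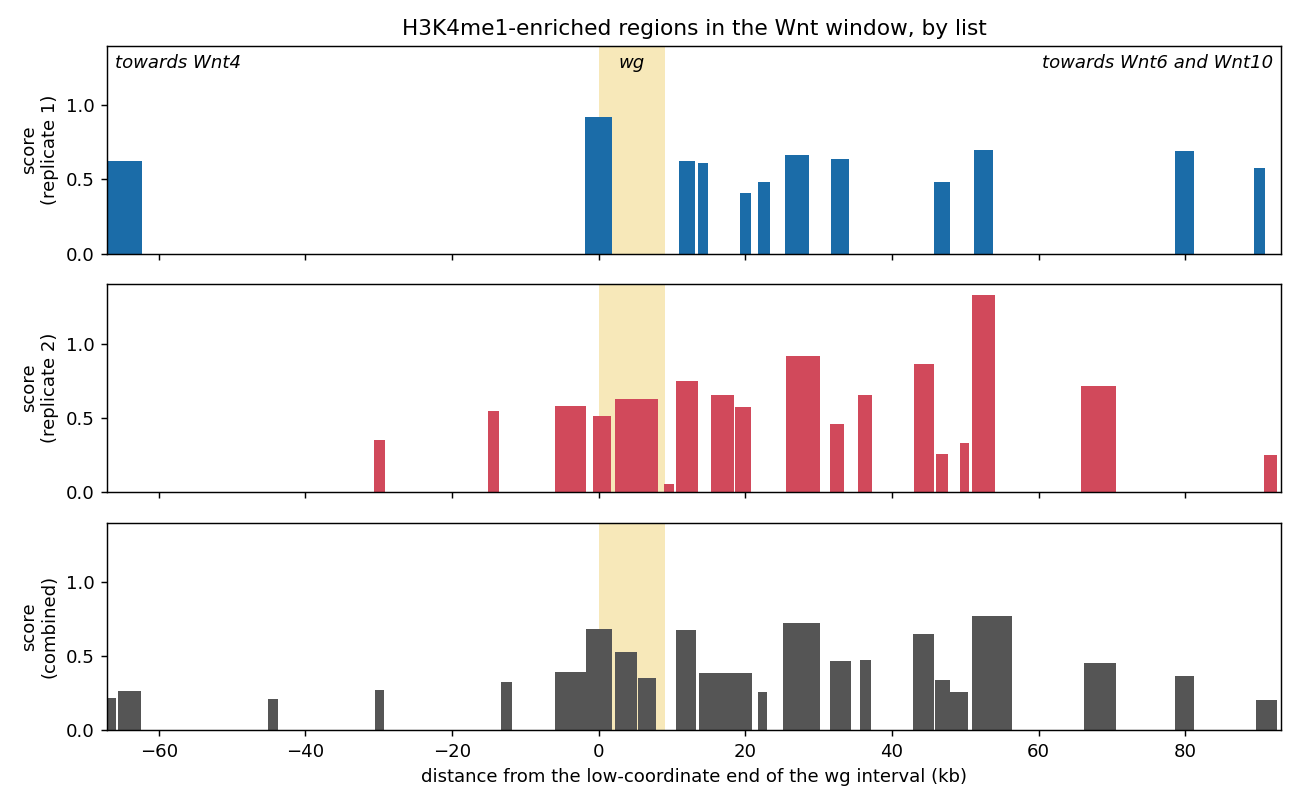
Enriched regions in the Wnt window for replicate 1, replicate 2 and the combined list, by distance from the low-coordinate end of the wg interval in kb (shaded, the wg interval); the width of a block is the region, cut at the window's edge, and its height the deposited score, which is comparable within a list only. Between -62.3 and -1.87 kb replicate 1 has no block, and the highest block of replicate 2, at a score of 1.32, lies 51.0 to 54.1 kb above the low-coordinate end of wg.

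The start of the wg interval was enriched in both replicates. In replicate 1 a single region, 2L:7305136-7308852, lay across it, with a score of 0.92, the highest of its 12 regions and above 82.5% of the replicate 1 regions on 2L. The score is the authors' own value per region, above 0 for enrichment, on a scale that no file states, so it is ranked here only within a list. In replicate 2 the same edge held 2L:7306296-7308669, with a score of 0.51, above 40.4% of its regions on 2L. Replicate 1 covered all of this region of replicate 2. The combined list had 2L:7305308-7308777 here (3.47 kb, score 0.68), which replicate 1 covered to 100% and replicate 2 to 69.0%.

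Most of the rest of wg was enriched in replicate 2 and in the combined list, and none of it in replicate 1. The region 2L:7309260-7315050 of replicate 2 was 5.79 kb wide with a score of 0.62, near the middle of its list, and replicate 1 covered 0% of it. In replicate 1 the gap from 2L:7308853 to 2L:7317912 ran 9.06 kb, through the rest of the wg interval and past its end. The combined list followed replicate 2 with 2L:7309237-7312260 (score 0.53) and 2L:7312342-7314828 (score 0.35). The covered share of the wg interval was 52.2% ± 44.7 (SD, n = 2), and was 4.07 times as high in replicate 2 as in replicate 1, a difference of 63.2 percentage points. Among the other 2554 windows of 9 kb on 2L, replicate 2 exceeded replicate 1 by as much in 10 (0.392%, or 0.692% of the 1445 that held an enriched base), and in 27 the replicates differed by as much either way. Of those windows, 1515 were covered less than wg in replicate 1, 2315 in replicate 2, and 2172 by regions of the combined list. A wide mark over wg therefore rests on replicate 2 and on the combined list, which belongs to the same ChIP samples. A last region of replicate 2, 2L:7315920-7317278, straddled the high-coordinate end of wg with a score of 0.06, where 0.893% of its regions on 2L scored lower, and met no region of the other lists.

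Just below wg, replicate 2 and the combined list had a region that replicate 1 barely reached. It spanned 2L:7301011-7305326 in replicate 2 (4.32 kb, score 0.58) and 2L:7301117-7305270 in the combined list (4.15 kb, score 0.39), and replicate 1 covered 4.43% of the region of replicate 2.

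Farther towards Wnt4, the lists held isolated regions, none of them found in both replicates. Replicate 1 had none between 2L:7244686 and 2L:7305135, a gap of 60.5 kb that was its longest in the window, and 68 of its 1252 gaps on 2L were as long or longer. Replicate 2 had none from below the window up to 2L:7276300. That gap measured 36.3 kb within the window and 52.8 kb in full, from 2L:7223536, and 66 of its 1677 gaps on 2L were as long or longer. Between them the replicates left 31.6 kb free of enrichment in both, from 2L:7244686 to 2L:7276300. The combined list placed 1 region inside that stretch, 2L:7261967-7263334 (1.37 kb, score 0.21), which neither replicate met. Beyond it replicate 2 had 2L:7276301-7277840 (score 0.35) and 2L:7291930-7293372 (score 0.55), and replicate 1 covered 0% of each. At the far edge replicate 1 had 2L:7238605-7244685 (6.08 kb, score 0.63), its widest region here, of which replicate 2 covered 0%. The combined list split this last region into 2L:7239788-7241214 and 2L:7241412-7244610, with scores of 0.22 and 0.26, and only 9.27% and 15.8% of its regions on 2L scored lower. The longest gap of the combined list, 17.4 kb from 2L:7244611 to 2L:7261966, also lay on this side.

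**Figure D2:**
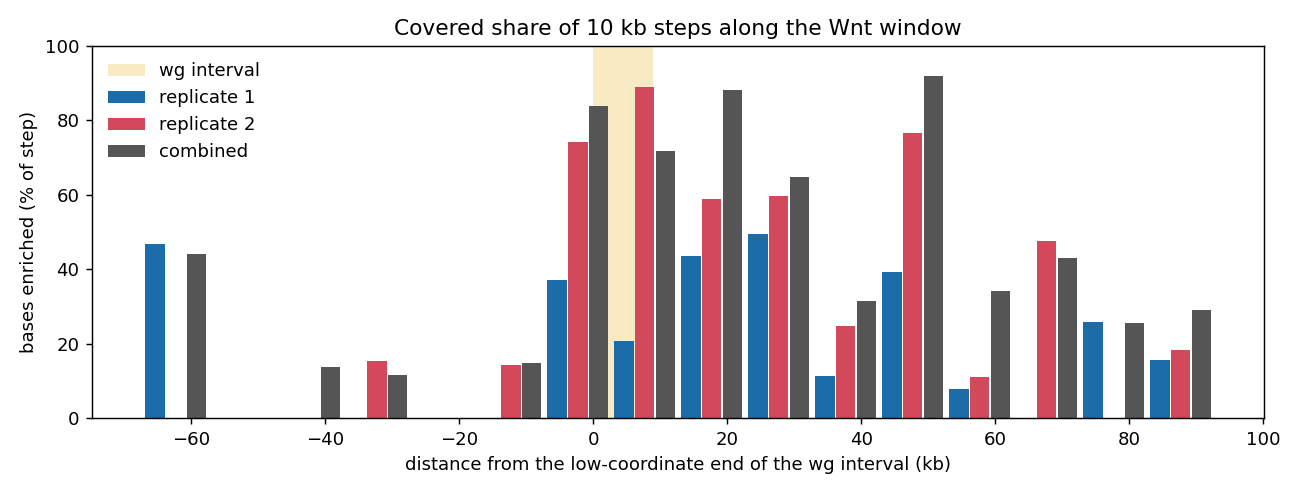
Bases enriched in each 10 kb step of the Wnt window, in % of the step, for replicate 1, replicate 2 and the combined list, against distance from the low-coordinate end of the wg interval in kb (shaded, the wg interval); each trio of bars is 1 step. Replicate 1 stays under 50% in all 16 steps, while replicate 2 and the combined list reach 50% in 5 each, all between -7 and 53 kb.

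From wg towards Wnt6 and Wnt10 the mark came as a chain of regions, each under 10 kb wide. Joining regions less than 5 kb apart gave a chain of 10 regions over 43.2 kb in replicate 2 (2L:7301011-7344258) and of 10 regions over 43.1 kb in the combined list (2L:7301117-7344175), of which 70.7% and 78.6% were covered. Of 540 such chains of replicate 2 on 2L, 46 were as long or longer, and of 509 of the combined list 59 were. In replicate 1 the chain began only past wg, at 2L:7317913-7341131, with 6 regions over 23.2 kb that covered 54.0% of it. As long or longer were 94 of the 505 chains of replicate 1 on 2L. Regions of at least 10 kb were absent from the window in all 3 lists, where they made up 8.64%, 5.48% and 9.33% of the rest of 2L for replicate 1, replicate 2 and the combined list. With only 12, 18 and 22 regions in the window in these lists, their absence at such shares says little. The widest region of the window was 2L:7320659-7327870 of the combined list, with 7.21 kb and a score of 0.39. Replicate 1 covered it to 40.6% and replicate 2 to 74.3%.

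Above wg, 7 regions of replicate 1 each overlapped a single region of replicate 2, and 3 of these pairs hold the highest pair scores of replicate 2. The first was 2L:7317913-7320104 of replicate 1, with a score of 0.63, which lay wholly inside 2L:7317516-7320536 of replicate 2, with a score of 0.75. The second was 2L:7332358-7335722 of replicate 1 (score 0.66), of which replicate 2 covered 92.3% with 2L:7332618-7337128 (score 0.92). In the combined list it was 2L:7332202-7337175 (4.97 kb, score 0.72), above 77.9% of the regions on 2L. In the third, past the chain, 2L:7358196-7360796 of replicate 1 (score 0.70) lay wholly inside 2L:7357967-7361103 of replicate 2 (score 1.32). That score was the highest of the 18 regions of replicate 2 here, above 97.9% of the replicate 2 regions on 2L, while its partner in replicate 1 stood above 56.4%. The combined region over this pair, 2L:7357961-7363424 (5.46 kb, score 0.77), was also the highest of its list in the window, and 81.2% of the regions on 2L scored lower. It ran past the replicates at its high-coordinate end, and replicate 1 covered 47.6% and replicate 2 57.4% of it. By rank among the regions of 2L these 3 pairs stood higher in replicate 2, as did 2L:7326241-7327841 of replicate 1 (score 0.41), whose partner 2L:7325551-7327811 had a score of 0.57. The other 3 pairs stood lower in replicate 2. Among these, 2L:7338724-7341131 of replicate 1 (score 0.64) met 2L:7338553-7340533 (score 0.46), and 2L:7352774-7354901 (score 0.48) met 2L:7353053-7354679 (score 0.25). In the last pair 2L:7396354-7397926 (score 0.58) touched 2L:7397706-7399548 (score 0.25) over 221 bases.

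Other regions on the Wnt6 and Wnt10 side belonged to 1 replicate. Replicate 2 alone had 2L:7349950-7352681 (score 0.87, above 76.8% of its regions on 2L) and 2L:7372839-7377595 (4.76 kb, score 0.72), and the combined list matched them as 2L:7349863-7352738 (score 0.65) and 2L:7373250-7377558 (4.31 kb, score 0.45). Replicate 1 alone had 2L:7385623-7388205, with a score of 0.69, behind 2 of its 12 regions here, and the combined list matched it as 2L:7385627-7388191 (score 0.37). Replicate 1 alone also had 2L:7320575-7321982 (score 0.61) and 2L:7328758-7330312 (score 0.48). Replicate 2 alone also had 2L:7322310-7325403 (score 0.66), 2L:7342376-7344258 (score 0.66) and 2L:7356232-7357548 (score 0.33). In the replicates the high-coordinate end of the window held long gaps. Replicate 1 had a gap of 24.8 kb from 2L:7360797 to 2L:7385622, and replicate 2 had gaps of 11.7 kb and 20.1 kb, the second from 2L:7377596 to 2L:7397705. The combined list had shorter gaps there, the longest of 9.83 kb from 2L:7363425 to 2L:7373249. It covered 25.65% to 43.09% of each 10 kb step from 53 kb above the low-coordinate end of wg onwards.

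The replicates shared less sequence in the Wnt window than in most of 2L. Bases enriched in both came to 15.7 kb, which was 24.9% of the 63.1 kb enriched in either, against 59.9% on the rest of 2L. Of the 137 other 160 kb windows of 2L with enriched bases in either replicate, 10 had a lower share and the median was 59.3%. Had every enriched base of replicate 1 lain in a region of replicate 2, the share would have been 60.9%, given their unequal covered shares. The part of these unequal shares in the value was not tested. By regions, 8 of the 12 of replicate 1 overlapped one of replicate 2 by at least 1 base (66.7%, 95% Wilson interval 39.1 to 86.2), against 1075 of 1239 on the rest of 2L (86.8%, interval 84.8 to 88.5). Of the 18 regions of replicate 2, 9 overlapped one of replicate 1 (50.0%, interval 29.0 to 71.0), against 1256 of 1661 on the rest of 2L (75.6%, interval 73.5 to 77.6). The intervals cover counting error only. The share was lowest below wg, at 6.55% of the bases enriched in either replicate, and was 21.6% over wg and 31.5% above it.

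**Figure D3:**
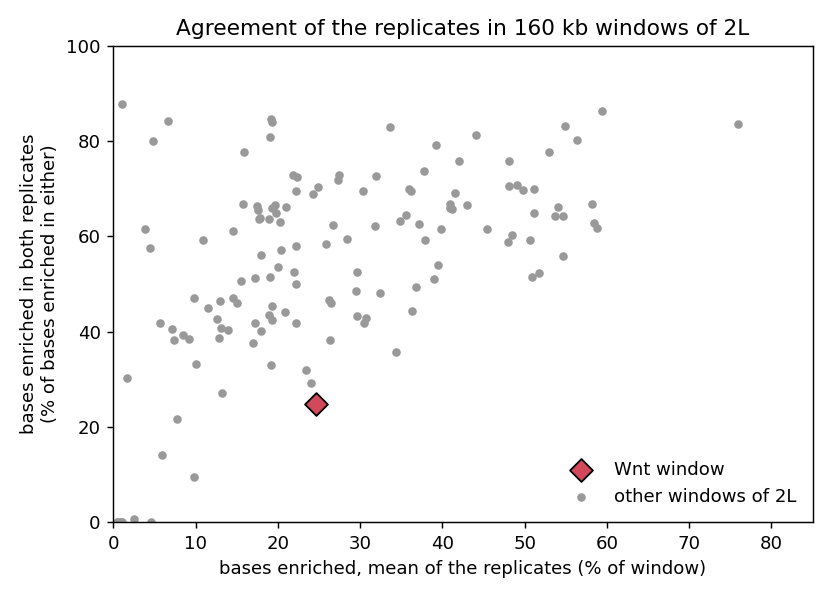
Bases enriched in both replicates, in % of the bases enriched in either, against the mean covered share of the replicates, in % of the window, for the Wnt window (diamond) and the other 160 kb windows of 2L (points). At a mean covered share of 24.6% the Wnt window lies at 24.9%, below the 28 other windows whose covered share was within 5 percentage points of it, which run from 29.1% to 73.0%.

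The same regions were also counted as 1 kb bins with at least 50% of their bases enriched. This restates the covered shares and is no separate support for them. In the Wnt window 31 of 160 bins were called in replicate 1 (19.4%), where 25.3% of all bins of 2L were. In replicate 2, 52 bins were called (32.5%), against 26.7% on 2L. In the combined list, 63 bins were called (39.4%), against 31.7%. Called in both replicates were 18 bins (11.3%), against 19.5% on 2L. Replicate 1 thus lay below the arm and replicate 2 above it, while bins called in both were fewer than on the arm.

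Set against the other 142 windows of 160 kb along 2L, the Wnt window was ordinary in covered share and below the middle in score. In covered share 61 windows lay below it for replicate 1, 91 for replicate 2 and 93 for the combined list, and the medians of the other windows were 21.9%, 22.5% and 28.4% in that order. The mean score of its regions, weighted by their bases, was 0.65 in replicate 1, in which the median window had 0.79 and 24 of 137 scored lower. It was 0.65 in replicate 2, where the median window had 0.74 and 44 of 135 scored lower. In the combined list it was 0.47, against a median of 0.65, and 22 of 135 windows scored lower. All 3 lists thus placed the Wnt window in the lower part of 2L by score. By single regions, 1 of 12 in replicate 1, 3 of 18 in replicate 2 and 2 of 22 in the combined list reached the upper 25% of scores on 2L.

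**Figure D4:**
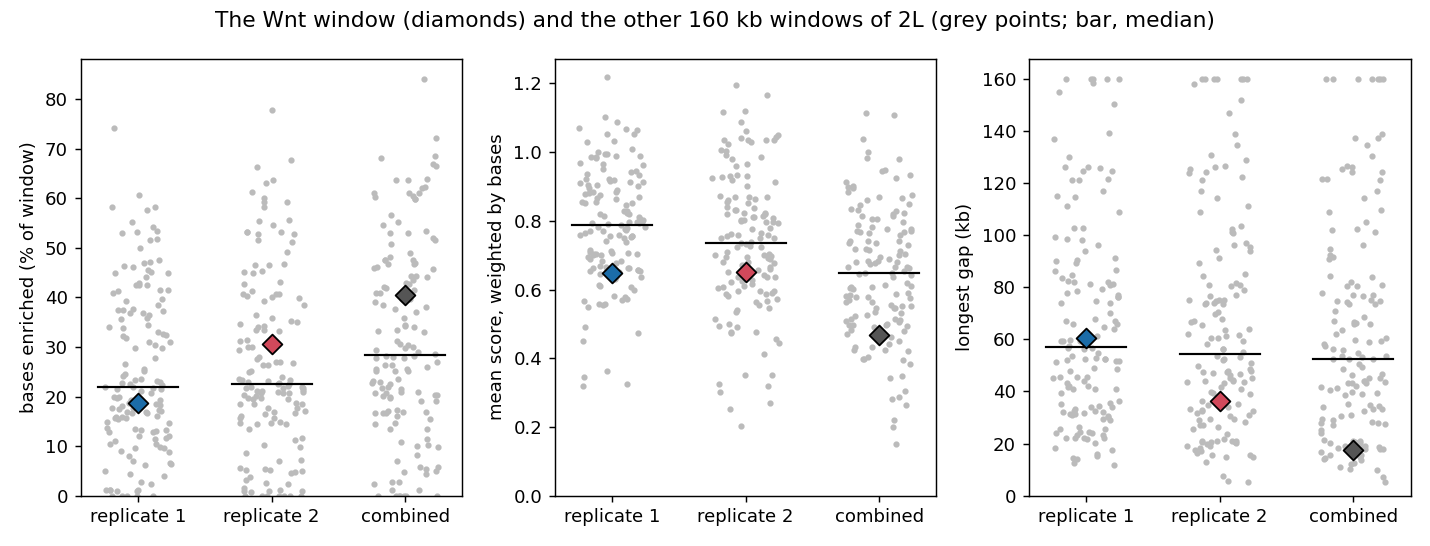
Covered share (% of window), mean score weighted by bases and longest gap (kb) of the Wnt window (diamonds) and of the other 160 kb windows of 2L (grey points, with a bar at their median), in replicate 1, replicate 2 and the combined list. The diamonds lie near the middle in covered share and below the median in score in all 3 lists, and their longest gap is 60.5 kb in replicate 1, 36.3 kb in replicate 2 and 17.4 kb in the combined list.

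In each list the Wnt window ranked higher among the windows of 2L by number of regions than by covered share. The number was not compared among windows of like covered share. The combined list had 22, more than 131 of the other 142 windows, where the median was 12. Replicate 1 had 12, more than 100 windows, and replicate 2 had 18, more than 108. Median widths in the window were 2300 bases for replicate 1, 2317.5 for replicate 2 and 2827 for the combined list, against 3194, 2338 and 2531.5 on the rest of 2L. Regions of at least 5 kb were 1 of 12, 1 of 18 and 2 of 22 in these lists (8.33%, 5.56% and 9.09%), against 29.2%, 18.9% and 24.6% on the rest of 2L. Regions of at least 5 kb thus made up a smaller share here in each list, on counts of 1 or 2 regions, while the median width lay below that of the arm by 894 bases in replicate 1 and by 20.5 in replicate 2, and above it in the combined list.

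Gap lengths differed along the window and between the lists. The longest gap was 60.5 kb in replicate 1, where the other windows had a median of 57.1 kb. It was 36.3 kb in replicate 2, against a median of 54.2 kb, and 17.4 kb in the combined list, against 52.5 kb. Between regions of the combined list 9 of 21 gaps were under 1 kb (42.9%, against 35.3% of its gaps on 2L), among them 37 bases at the low-coordinate edge of wg and 81 bases within wg. Gaps of at least 10 kb were 3 of the 21 (14.3%, against 18.1% on 2L), and all 3 lay below wg, on the Wnt4 side. Both shares were near those of the arm. In the replicates gaps of at least 10 kb lay on both sides of wg. Above wg they measured 11.6 and 24.8 kb in replicate 1, and 11.7 and 20.1 kb in replicate 2. Below wg they measured 60.5 kb in replicate 1. In replicate 2 they were 14.1 kb there, and 36.3 kb for the gap cut by the window's edge.

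Fewer than 50% of the combined regions here were met by both replicates. Of the 22 regions in the window, 9 met regions of both replicates (40.9%, against 58.4% on the rest of 2L), 4 met replicate 1 alone (18.2%, against 10.8%), 7 met replicate 2 alone (31.8%, against 20.7%) and 2 met neither (9.09%, against 10.0%). The share met by neither was thus near that of the arm. These 2 regions, 2L:7261967-7263334 and 2L:7293630-7295119, lay on the Wnt4 side. Regions of depletion, with a score below 0, numbered 0 in the whole list of replicate 1, 39 in that of replicate 2 and 17 in the combined list, and none fell in the window.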

How the data were processed

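H3K4me1 was measured by ChIP-seq in 2 ChIP samples, and 2 input samples served as background, per the labels. The submitters' processing notes name Bowtie 0.12.7 as a tool, and coordinates are those of FlyBase release 5, per the file headers. For the region caller, its threshold and the making of the combined list, nothing is stated in the labels or headers. The authors deposited 3 lists of regions, each region with a start, an end and a score of their own. The inputs have no list, and read depth is unknown.

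The members and lists were chosen with earlier results of these data known. Regions named depleted were set aside. Named in the text are combined regions of at least 3 kb, the 3 highest-scoring regions of each list, the longest gaps and the regions over wg. Also named, chosen after their values were seen, are regions found in 1 replicate or in neither. Pairs of overlapping regions of the replicates above wg are named as well. Windows of 2L had the length of the Wnt window, were in phase with it and did not overlap. Alternatives were a stricter score, joining of regions under 500 bases apart, other windows, single lists, and other overlaps. Sequences of these regions were not used here. Computations used Python 3.11.15, NumPy 2.4.6, SciPy 1.17.1 and Matplotlib 3.10.9, and the measures were tested on simulated data.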

Additional observations from a re-analysis of the deposited data

How the results depend on the processing

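No paired analysis was possible because the input samples have no region list of their own and the ChIP samples form a single group. Of 42 alternatives other than leaving out a replicate, 34 moved their value by less than the spread between replicates or its counting interval. Leaving out 1 of 2 replicates cannot move a mean by more than that spread, so those values say nothing about stability. For the wg interval the spread was 44.7 percentage points, so even the move from 52.2% to 81.0% with the combined list counted as less. The count of 34 is therefore no measure of stability there. With only regions at or above the median score of their list, the covered share of the Wnt window was 11.8%, its longest gap 67.2 kb, its score percentile among windows of 2L 13.9 (25.1 with all regions) and the shared part of the bases 7.38%. In the combined list the covered share was 40.5% and the longest gap 17.4 kb. By the highest score in a window in place of the mean, the score percentile was 55.7. Like 25.1, it is a mean over the replicates. On that average, the low rank by score holds for the mean of the regions and not for their peak. The top region in the window stood above 82.5% of the regions on 2L in replicate 1 and above 97.9% in replicate 2. The cause of these shifts was not tested. The percentile of the shared bases among the windows of 2L was 7.30. It was 0 among the 28 windows of like covered share, 6.67 among the 30 of nearest score, 4.72 with the stricter score and 7.30 with regions joined, and these settings were chosen after seeing the data. Leaving out 1 replicate gave 18.6% to 30.6% for the covered share, 43.0 to 64.1 for its percentile, 17.5 to 32.6 for the score percentile, 36.3 to 60.5 kb for the longest gap and 20.6% to 83.8% for the wg interval. Without read depth, a region missing from a list may be absent or below what that list could detect.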
